A study of Mus musculus with 4 samples.

Results

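Immediate early genes are switched on within minutes of a stimulus by factors already present in the cell, without new protein synthesis, through MAP kinases acting on serum response factor and CREB. Many encode transcription factors, and their transcripts are short-lived. In macrophages they respond to microbial products, cytokines and adhesion, and they are also known to be induced while cells are taken out of a tissue by enzymes. The 10 genes described here are the AP-1 subunits Fos, Fosb, Jun, Junb and Jund, the related factor Atf3, the zinc finger factor Egr1, the nuclear receptor Nr4a1, the early response gene Ier2 and Dusp1, a phosphatase that switches MAP kinases off. They are 10 of the 28692 genes in the table, and all 10 passed the filter on low counts in every comparison.

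The cells came from the colon lamina propria of 4 male C57/Bl6N mice, and no genetic change is labelled for any of them. The mice were gavaged on 5 days of each week for about 6 months with 200 µL of PBS, which held 12 µg of diesel exhaust particles for the 2 DEP mice (DEP 11 and DEP 13) and nothing else for the 2 controls (PBS 2 and PBS 3). Cd11b+ cells that were also Ly6c2+ or Cd64+ were sorted, and each mouse gave 1 library of 3′ tags with unique molecular identifiers (UMIs). Age is not labelled, and each mouse is 1 animal, not a pool. The genes were selected on measured values, with the difference between DEP and PBS mice in these libraries already known, so that for them this difference is described and no test of it is reported.

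Members were described in the 4771 of 6954 barcodes that held at least 1000 UMIs. Throughout, values of the 4 mice are given in the order DEP 11, DEP 13, PBS 2, PBS 3. The barcodes numbered 1218, 675, 1296 and 1582, with median UMIs of 5329, 5794, 7116 and 5368. Across libraries, 12 of their barcode codes occurred more than once, and doublets were not removed. Barcodes that carried T, B or plasma cell markers numbered 192 and were kept.

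Barcodes were divided by the monocyte gene Ly6c2 and the complement gene C1qa, which marks macrophages. Ly6c2-high barcodes (366) held at least 5 Ly6c2 UMIs and under 10 C1qa UMIs per 10000, C1qa-high barcodes (3367) held at least 10 C1qa and under 5 Ly6c2 UMIs per 10000, and 682 barcodes (14.3%) lay within 20% of a limit. The labelled cell types were described by their markers. In counts per 1000000 UMIs (CPM), the 8 monocyte markers summed to 7799 to 8962 in Ly6c2-high barcodes and to 846 to 1434 in C1qa-high barcodes, and the 11 macrophage markers to 10986 to 18019 and to 44454 to 55357. These lists include Ly6c2 (1353 and 61.2 CPM in the 2 classes, mice pooled) and C1qa (615 and 5157 CPM). Part of the difference is therefore set by the limits. Each other marker of the 2 lists differed in the same direction as its list. Lyz2 was found in every barcode, Csf1r in 88.0%, Fcgr1 (Cd64) in 62.5% and Itgam (Cd11b) in 40.7%. As Lyz2 was also found in each of the 192 barcodes with T, B or plasma cell markers, a Lyz2 UMI does not by itself identify the cell.

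Stretches upstream of the start sites of Fos, Dusp1 and Atf3 are shown because these 3 members, with Junb, varied together most closely from barcode to barcode, and because they were the 3 of the 8 members whose RefSeq promoter was searched that held TGACGT, the core of the element bound by CREB and ATF proteins. Capitals mark TGACGT on either strand. The coordinates are those of GRCm38.p6, the assembly of mm10, and positions count back from the RefSeq start site. The stretch of Dusp1 ends at position -48, since GENCODE places the 47 bases nearest the start in an exon, and the last 7 bases shown for Atf3 lie in an annotated exon as well.
Fos, chr12:85473640-85473889, plus strand: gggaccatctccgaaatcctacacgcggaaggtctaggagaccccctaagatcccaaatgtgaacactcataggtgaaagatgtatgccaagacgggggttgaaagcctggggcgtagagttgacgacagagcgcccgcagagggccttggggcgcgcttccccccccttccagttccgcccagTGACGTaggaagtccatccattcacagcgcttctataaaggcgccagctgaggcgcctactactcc
Dusp1, chr17:26508520-26508722, minus strand: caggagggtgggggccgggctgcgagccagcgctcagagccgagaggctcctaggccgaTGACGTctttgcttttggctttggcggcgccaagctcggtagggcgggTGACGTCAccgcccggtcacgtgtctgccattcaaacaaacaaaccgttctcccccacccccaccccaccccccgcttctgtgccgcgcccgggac
Atf3, chr1:191183334-191183583, minus strand: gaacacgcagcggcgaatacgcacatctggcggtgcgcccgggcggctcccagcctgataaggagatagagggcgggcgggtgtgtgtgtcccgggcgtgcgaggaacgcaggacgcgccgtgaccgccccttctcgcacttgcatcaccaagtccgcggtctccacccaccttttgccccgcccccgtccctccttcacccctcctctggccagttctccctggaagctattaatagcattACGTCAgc

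In Fos the match began at position -66, ahead of a TATAAA from -33. Dusp1 held matches from -191 and from -143, the second being the whole palindrome TGACGTCA, and Atf3 held a match on the other strand from -8 to -3, which overlaps the annotated exon. Of all 32851 promoter windows, which run from 250 bases before to 50 bases after the start, 7.51% held TGACGT and 1.79% held TGACGTCA on either strand. The AP-1 element TGACTCA was in 5.20% of all windows and the CArG box of serum response factor in 1.63%, and neither was in these windows of the 8 members. The promoters of Egr1 and Ier2 were not searched. A match describes the letters only.

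The members differ in build. On mm10, Jun (chromosome 4, 95049034 to 95052222), Junb (chromosome 8, 84974484 to 84978718), Jund (chromosome 8, 70698949 to 70700616) and Ier2 (chromosome 8, 84661331 to 84662852) have no intron in their principal coding transcript, which holds for 2.29% of the 6472 protein-coding genes tested. Fos (chromosome 12, 85473890 to 85477273), Fosb (chromosome 7, 19302696 to 19310051), Atf3 (chromosome 1, 191170296 to 191218039) and Dusp1 (chromosome 17, 26505590 to 26562128) have 3 introns, Nr4a1 (chromosome 15, 101254269 to 101274795) has 6 and Egr1 has 1. The annotated genes spanned from 1522 bases (Ier2) to 56539 bases (Dusp1), with a median of 4699 bases against 20853 bases for the genes tested. The promoter stretches shown for Dusp1 and Atf3 lie inside their annotated spans. For these genes the span therefore reaches beyond the RefSeq start and is longer than the gene measured from it. The pentamer AUUUA, known from unstable transcripts, stood in the 3′ untranslated region of 9 members, Ier2 being the exception, and of 61.9% of the genes tested. Its density ran from 0 (Ier2) and 0.47 (Fosb) to 5.8 (Dusp1) per 1000 bases, with a median of 2.89 in the members and 1.17 in the genes tested.

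The first question was how strongly each member was expressed. Each molecule gives 1 tag in this 3′ assay, so that CPM can be compared between genes without dividing by length. Fos was highest, at 3238, 2597, 3402 and 2853 CPM in the 4 mice, and no other member reached its lowest value. Junb (mean 1452 CPM), Jun (1126 CPM) and Dusp1 (1026 CPM) followed with overlapping ranges, and the range of Atf3 (695 CPM) overlapped those of Jun and Dusp1. Ier2 (320 CPM), Fosb (248 CPM) and Nr4a1 (219 CPM) were lower and overlapped each other. Egr1, at 84.0 to 130 CPM, and Jund, at 72.8 to 91.6 CPM, were lowest and overlapped as well. Together the 10 genes made up 8786, 6564, 10461 and 7376 CPM in the 4 mice, close to 1 of every 100 UMIs.

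**Figure D1:**
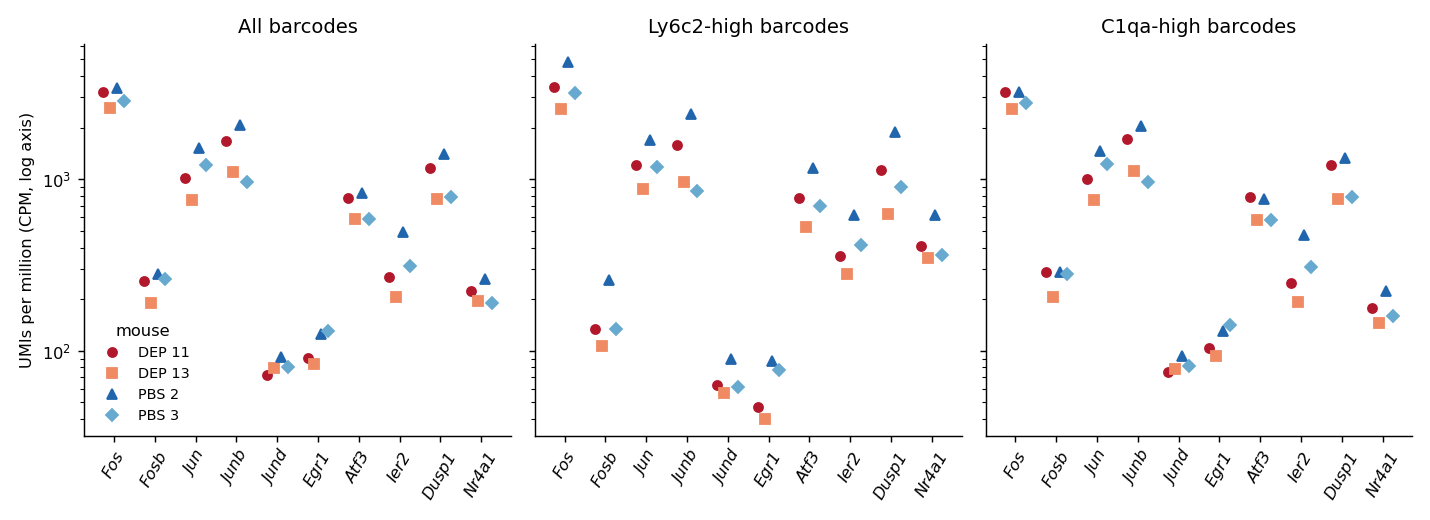
Level of each member in UMIs per 1000000 (CPM, log axis) in all barcodes, in Ly6c2-high and in C1qa-high barcodes, with 1 point per mouse. Fos lies highest in all 3 panels, Jund and Egr1 lie lowest, and PBS 2 holds the highest value of every member in Ly6c2-high barcodes.

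To compare shares of barcodes at 1 depth, each barcode was thinned to 1000 UMIs. At least 1 UMI of a member was then left in 97.9%, 95.7%, 98.9% and 97.5% of the barcodes, and the median barcode held 8, 5, 10 and 7 member UMIs in the 4 mice. Fos was found in 80.3% to 87.9% of thinned barcodes, against 96.1% to 99.0% before thinning. Junb (53.6% to 76.5%), Jun (47.4% to 65.7%), Dusp1 (40.7% to 64.7%) and Atf3 (37.0% to 50.6%) came next. Ier2 (19.1% to 36.4%), Fosb (17.3% to 22.5%) and Nr4a1 (17.8% to 21.3%) were found less widely. Egr1 (8.13% to 13.1%) and Jund (9.17% to 10.1%) reached about 1 barcode in 10. Before thinning, Egr1 was found in 29.2% to 47.3% and Jund in 30.4% to 42.4% of barcodes.

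**Figure D2:**
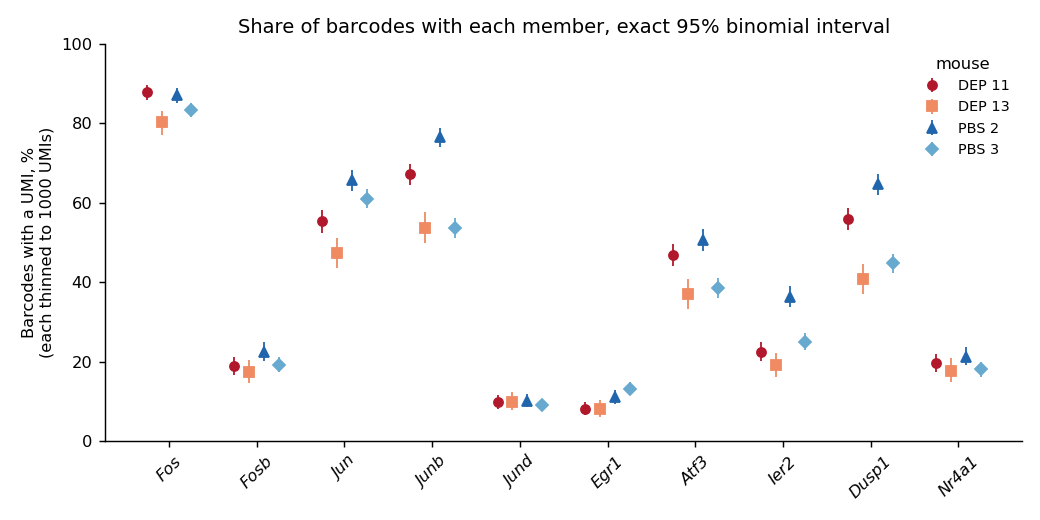
Share of barcodes with a UMI of each member after each barcode was thinned to 1000 UMIs, in percent, with 1 point per mouse and bars for the exact 95% binomial interval, which covers counting error only. Fos is found in over 80% of barcodes in each mouse and Jund in about 10%, and for Junb, Dusp1 and Ier2 the interval of PBS 2 lies above those of the other mice.

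The 10% of thinned C1qa-high barcodes with the most member UMIs held 23.4% to 26.1% of the member UMIs of a mouse. For single members the corresponding share was 27.6% to 31.7% for Fos and 49.4% to 68.7% for Ier2, and it reached 100% for Jund and Egr1, which few thinned barcodes hold at all. A thinned barcode held UMIs of 3.92, 3.32, 4.46 and 3.66 of the 10 members on average, and 5 or more members were found together in 38.3%, 26.1%, 49.5% and 32.0% of barcodes. DEP 13 was lowest and PBS 2 highest in both measures.

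Barcodes with under 500 UMIs were taken as the background, since few of them are likely to hold an intact cell. The summed members were not lower there. Their sum was 13517, 10584, 12503 and 9604 CPM, above the sum in the main barcodes of the same mouse in 4 of 4 mice. Of the 10 members, 7 were higher there in all 4 mice, Fos in 3 and Junb in 2, both DEP mice. Over all 6609 genes tested, 20.1% were higher there in all 4 mice. Dusp1 was higher in DEP 11 alone, with 1270, 645, 1068 and 700 CPM in these droplets. Jund stood at 296 to 516 CPM and Egr1 at 225 to 355 CPM in these droplets, both above their ranges in the main barcodes, and the median mitochondrial share was 19.9% to 23.7% against 1.64% to 2.02%. Within the main barcodes the levels also moved with depth. Jund averaged 281 CPM at 1000 to under 2000 UMIs and 58.1 CPM at 16000 UMIs or more, and the sum of the members averaged 9462 CPM and 5409 CPM. The part of depth and of free RNA in each level was not tested. In the 192 barcodes with T, B or plasma cell markers the sum was 4900, 4770, 7441 and 4874 CPM. Those with plasma cell markers were deep, with median UMIs of 15117 to 25253 in the 4 mice, and their sum averaged 4342 CPM. Their part in the fall of the sum with depth was not tested.

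The next question was whether monocyte-like and macrophage-like barcodes of the same mouse differed in these genes. The recorded results behind the choice of members set DEP against PBS mice, and whether values of the classes were also seen is not recorded. UMIs were summed per mouse and class, and the classes were compared within mice by edgeR's quasi-likelihood test, with Benjamini-Hochberg adjustment over 6783 genes and a limit of 5%. Egr1 and Fosb were higher in C1qa-high barcodes, Nr4a1, Ier2 and Fos were higher in Ly6c2-high barcodes, and Jun, Junb, Jund, Atf3 and Dusp1 did not pass the test. Thus 2 members were called higher in C1qa-high barcodes, where 12.1% of all genes were, and 3 were called lower, where 14.3% of all genes were. The median log2 fold change was -0.13 over the members and 0.016 over all genes tested.

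Nr4a1, an orphan receptor known to be needed by Ly6C-low monocytes, differed most. Its level was 410, 349, 616 and 363 CPM in Ly6c2-high barcodes of the 4 mice and 178, 145, 223 and 159 CPM in their C1qa-high barcodes. All 4 Ly6c2-high values lay above all 4 C1qa-high values. The log2 fold change of C1qa-high over Ly6c2-high was -1.30 ± 0.078 (SE, adjusted p = 1.50e-10), and averaged over the mice on the log scale, the level was 2.43-fold higher in Ly6c2-high barcodes. After thinning, 25.9% to 36.7% of Ly6c2-high and 14.3% to 19.1% of C1qa-high barcodes held a UMI of Nr4a1.

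Ier2, an early gene of the serum response, was at 356, 282, 620 and 412 CPM in Ly6c2-high barcodes and at 249, 192, 476 and 306 CPM in C1qa-high barcodes. It was lower in C1qa-high barcodes in 4 of 4 mice by a similar amount, while the mice themselves differed more than the classes did. The log2 fold change was -0.47 ± 0.075 (SE, adjusted p = 8.60e-05), and with each barcode thinned to 1000 UMIs it was -0.21 (adjusted p = 0.327). Fos, the partner of the Jun proteins in AP-1, was at 3456, 2570, 4832 and 3171 CPM in Ly6c2-high and at 3233, 2560, 3225 and 2793 CPM in C1qa-high barcodes. Its log2 fold change was -0.23 ± 0.068 (SE, adjusted p = 0.0167). PBS 2 showed the widest gap and DEP 13 almost none, and without PBS 2 the log2 fold change was -0.094 (adjusted p = 0.344).

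Egr1, a zinc finger activator, leaned most to C1qa-high barcodes. It was at 104, 93.0, 131 and 141 CPM there and at 47.2, 40.3, 87.4 and 76.9 CPM in Ly6c2-high barcodes, where it rests on 26, 12, 44 and 36 UMIs. All 4 C1qa-high values lay above all 4 Ly6c2-high values. The log2 fold change was 0.89 ± 0.14 (SE, adjusted p = 4.24e-05). Fosb, a paralogue of Fos, was at 288, 206, 286 and 280 CPM in C1qa-high and at 134, 107, 260 and 135 CPM in Ly6c2-high barcodes. The gap was close to 1 on the log2 scale in 3 mice and 0.14 in PBS 2, and the test gave 0.75 ± 0.13 (SE, adjusted p = 0.000151). Fos and Fosb thus ran in opposite directions between the classes.

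The remaining 5 members did not pass. Jund, an AP-1 subunit with a steady basal level, was at 63.5, 57.0, 89.4 and 62.0 CPM in Ly6c2-high and at 74.9, 78.2, 93.1 and 81.6 CPM in C1qa-high barcodes, higher in the latter in 4 of 4 mice (log2 fold change 0.25 ± 0.14 SE, adjusted p = 0.201). With each barcode thinned to 1000 UMIs, the log2 fold change of Jund was 0.81 (adjusted p = 0.0383), which rests on few UMIs. Thinned Ly6c2-high barcodes held 0.034, 0.019, 0.12 and 0.095 Jund UMIs on average, and thinned C1qa-high barcodes 0.12, 0.14, 0.12 and 0.10. The classes thus lay close together in both PBS mice. Jun was at 1212, 882, 1687 and 1179 CPM in Ly6c2-high and at 1000, 753, 1457 and 1225 CPM in C1qa-high barcodes, lower in 3 mice (-0.17 ± 0.067 SE, adjusted p = 0.0662). Atf3, a CREB-related factor that is known to restrain inflammatory genes, gave -0.20 ± 0.088 (SE, adjusted p = 0.105), with 775, 527, 1168 and 697 CPM in Ly6c2-high barcodes and 788, 575, 770 and 576 CPM in C1qa-high barcodes. Its log2 gap was 0.024, 0.13, -0.60 and -0.27. Junb (0.051 ± 0.069, SE) and Dusp1 (-0.095 ± 0.089, SE) were close to 0. In all, 3 members were higher in C1qa-high barcodes in every mouse (Fosb, Jund and Egr1), where 21.7% of all genes were, and 3 were lower in every mouse (Fos, Ier2 and Nr4a1), where 19.1% of all genes were.

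**Figure D3:**
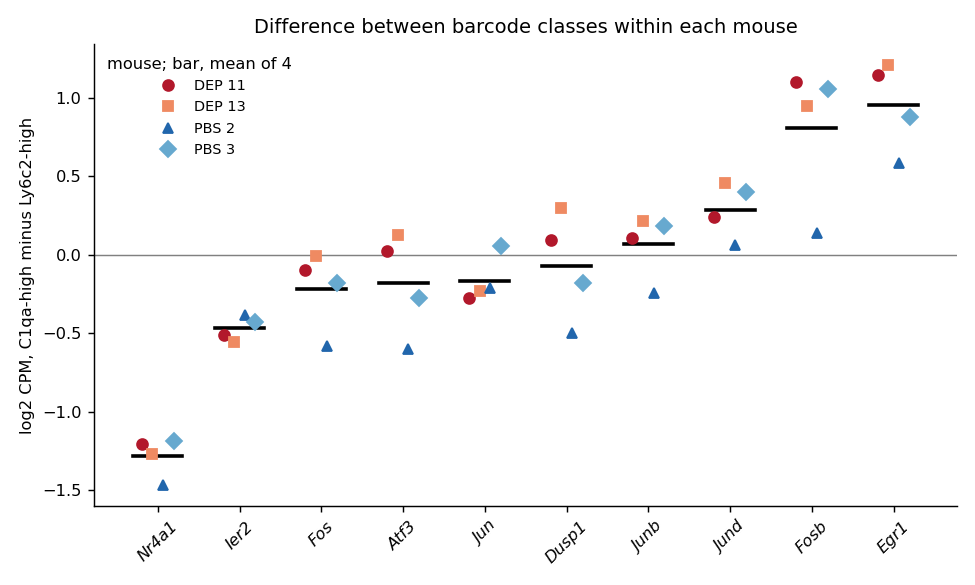
Difference in log2 CPM between C1qa-high and Ly6c2-high barcodes of the same mouse for each member, with 1 point per mouse and a bar at the mean of the 4 mice. Nr4a1 lies between -1.47 and -1.19 and Egr1 between 0.58 and 1.21, and PBS 2 lies below the other mice in 8 of the 10 members.

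C1qa-high barcodes were deeper than Ly6c2-high barcodes, with median UMIs of 5957 to 7850 against 4510 to 5640 in the 4 mice. In an alternative added after the data were seen, only barcodes of 4000 to under 8000 UMIs were compared, 229 of them Ly6c2-high and 1527 C1qa-high. The same 5 members passed there, where 9.50% of 6334 genes were called higher and 11.2% lower, with log2 fold changes of -1.22 for Nr4a1, -0.41 for Ier2, -0.20 for Fos, 0.87 for Egr1 and 0.61 for Fosb. Egr1, Fosb and Nr4a1 passed under all 18 alternatives tried, Ier2 under 16 and Fos under 10.

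Along steps of C1qa, Nr4a1 averaged 372 CPM (SD 25.6, 4 mice) below 5 C1qa UMIs per 10000, 335 CPM (SD 77.5) from 10 to 20, 210 CPM (SD 40.7) from 20 to 40 and 148 CPM (SD 40.5) from 40 to 60. Most of the drop in Nr4a1 lay below 60, and at 80 or more it averaged 141 CPM. Egr1 averaged 76.1 CPM (SD 23.9) at the lowest step, 84.7 CPM from 10 to 20, 119 CPM from 20 to 40 and 122 CPM (SD 38.8) at 80 or more. Fosb was lowest from 10 to 20, at 182 CPM, and averaged 279 CPM from 20 to 40 and 234 CPM (SD 52.2) at 80 or more, so that it did not rise steadily with C1qa. Its step below 5 was spread widely, with PBS 2 far above the other mice (229 CPM, SD 78.4). The summed members changed less, from 9184 CPM (SD 1302) at the lowest step to 7607 CPM (SD 1598) at the highest. Along Ly6c2, Nr4a1 averaged 195 CPM in barcodes without a Ly6c2 UMI and 379 CPM from 10 to 20 Ly6c2 UMIs per 10000, and Egr1 122 CPM and 68.4 CPM. At 20 or more Ly6c2 UMIs, in 95 barcodes of which 8 came from DEP 13, Nr4a1 was lower again, at 300 CPM (SD 99.1). These steps use the genes that define the classes and restate the same contrast in finer parts.

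**Figure D4:**
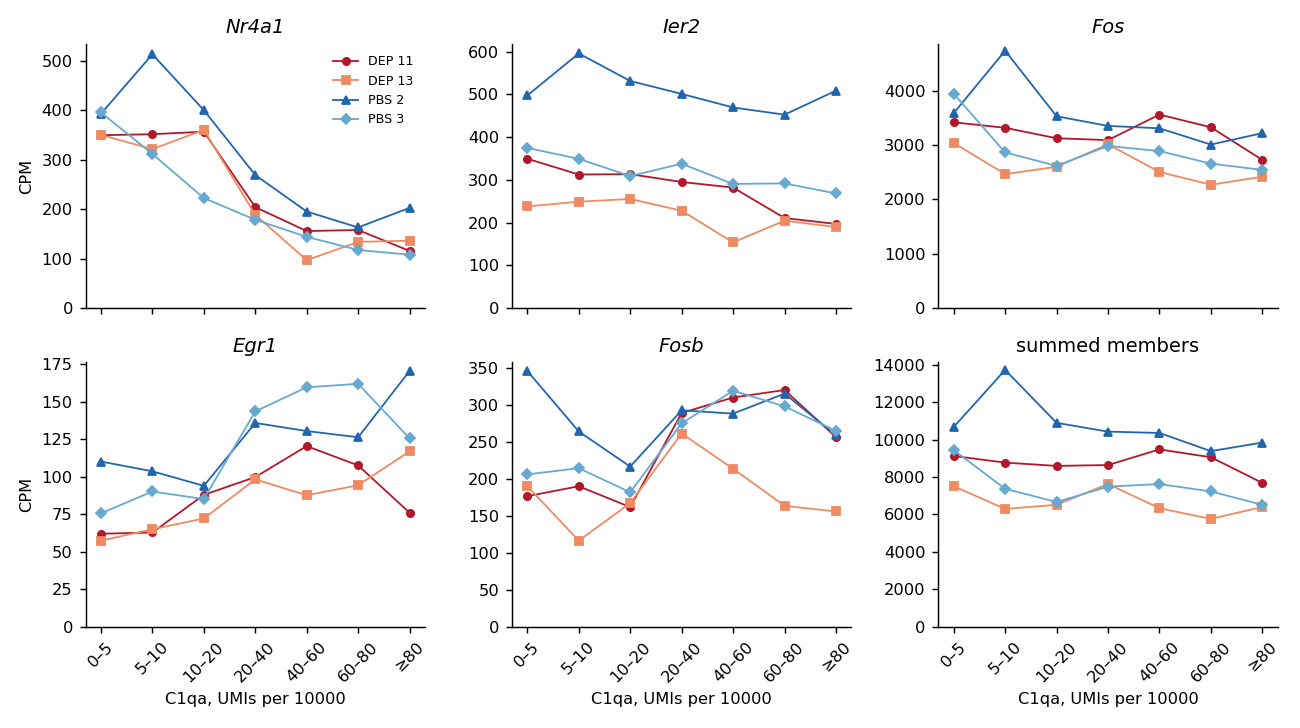
Levels of Nr4a1, Ier2, Fos, Egr1, Fosb and the summed members in CPM along 7 steps of C1qa, in UMIs per 10000 UMIs of the barcode, with 1 line per mouse. The mean of Nr4a1 falls from 372 to 141 CPM between the lowest and the highest step and that of Egr1 rises from 76.1 to 122 CPM, and the summed members stay within 7607 to 9184 CPM on average.

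Other genes of the same kind were counted in the same contrast, in which 12.1% of all genes were called higher and 14.3% lower. Of 27 further early response genes, 22 were tested, of which 4 were called higher and 9 lower in C1qa-high barcodes, with a median log2 fold change of -0.11. The filter asked for a UMI in 5% of the barcodes of the 2 classes combined, most of which were C1qa-high, so that 19.2% of the genes tested lay under 5% in Ly6c2-high barcodes and 0.236% in C1qa-high barcodes. Myc, a growth regulator and one of the 4 called higher, was found in 5.91% of C1qa-high and 0.820% of Ly6c2-high barcodes and passed the filter only through the class in which it was higher, so that its fold change and p are not given. The count of 4 and the median still include Myc, and its call is no support for a difference. Zfp36l1, which destabilises AU-rich transcripts, stood at 1.27 ± 0.13 (SE). Klf4, a factor of monocyte differentiation, was lowest at -0.90 ± 0.11, next to the Fos-like gene Fosl2 at -0.88 ± 0.18. Of 15 kinases and factors that act upstream of the members, 11 were tested and 1 passed, Map2k1, a kinase that activates ERK, at -0.58 ± 0.16 (SE, adjusted p = 0.00952). The kinase gene Rps6ka3 was found in 8.79% of C1qa-high and 3.83% of Ly6c2-high barcodes. It did not pass the test and, like Myc, passed the filter only through the class in which it was higher, so that its fold change is not given. Of the other genes on the list, the kinase gene Mapk14 (0.18) was highest and Elk3, a partner of serum response factor, stood at -0.28, neither past the test. The list, with Rps6ka3, had a median of -0.081. Of 12 leucine zipper genes, whose proteins can pair with AP-1 subunits or are related to them, 10 were tested, 3 were called higher and 2 lower, with a median of 0.14. Maf, known from macrophages, was at 1.72 ± 0.17, Cebpb, a factor of myeloid cells, was lowest at -1.34 ± 0.27, and Mafk gave -0.79 ± 0.34 without passing. Of 11 heat shock genes, 5 were called higher and 3 lower, with a median of 0.18, and they ranged from Bag3 (1.43 ± 0.23) and Dnajb1 (1.29 ± 0.092) to Hspa8 (-0.27 ± 0.057) and Hspa1b (-0.35 ± 0.085).

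Within a mouse, the members varied together from barcode to barcode to unequal degrees. Pearson's r was taken on the log scale over the 4400 barcodes with at least 2000 UMIs, each thinned to 2000, and is given as a mean over the 4 mice. The barcodes of a mouse share a library, so that no p is given. Fos and Junb had the closest relation (r = 0.43, from 0.33 in PBS 3 to 0.47 in DEP 11), followed by Fos with Dusp1 (0.42) and Fos with Atf3 (0.41). Junb with Dusp1 gave 0.38, and Fos with Jun gave 0.34. Jund, the steady subunit, stood apart, with r from 0.023 (with Nr4a1) to 0.10 (with Fosb). A member with few UMIs at this depth, such as Jund or Egr1, is limited in the r it can reach.

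**Figure D5:**
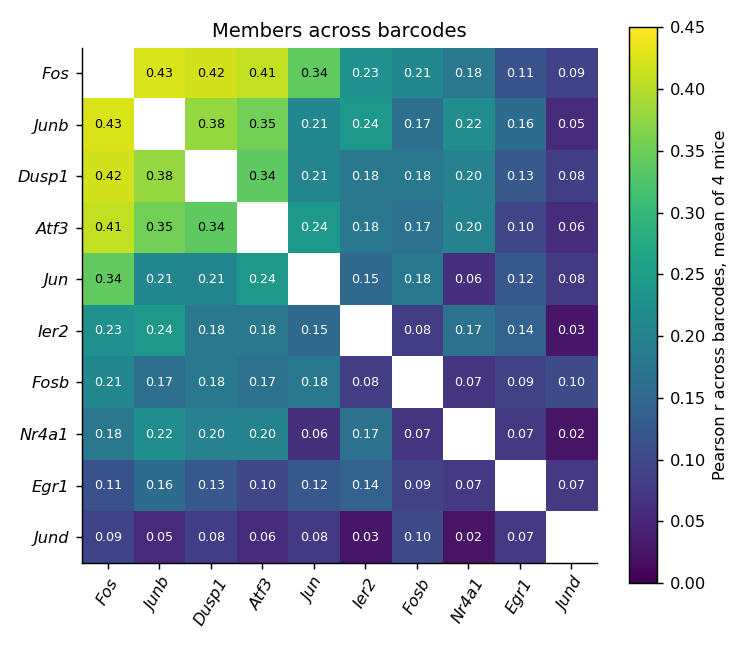
Pearson's r between each pair of members across barcodes thinned to 2000 UMIs on the log scale, as the mean of the 4 mice, with members ordered by their mean r. The block of Fos, Junb, Dusp1 and Atf3 lies between 0.34 and 0.43, and the row of Jund at or below 0.10.

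Among the genes whose pattern across these barcodes was most like the sum of the members were H3f3b, which encodes a replacement histone (mean r = 0.43), Zfp36, whose protein destabilises AU-rich transcripts (0.42), the cytokine gene Il1b (0.39) and the early response gene Btg2 (0.37). Lower values of r were found for Nfkbia, the inhibitor of NF-κB (0.30), Socs3, an inhibitor of STAT signalling (0.29), the zinc finger gene Klf6 (0.29), the receptor gene Ccrl2 (0.28) and the chaperone gene Hspa8 (0.28). All of these were positive in each of the 4 mice. Hspa8 varied most between mice, from 0.17 in DEP 11 to 0.38 in PBS 3. Over the 3383 genes compared, the median r was -0.0039 and the 95th percentile 0.057.

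Mice were then compared. The summed members put the mice in the order DEP 13, PBS 3, DEP 11 and PBS 2 from low to high in all barcodes, in Ly6c2-high and in C1qa-high barcodes, so that each group held 1 of the 2 lower mice. The sum averaged 7675 ± 1571 CPM (SD, n = 2) under DEP and 8918 ± 2181 CPM (SD, n = 2) under PBS, a difference smaller than the SD of either group. In Ly6c2-high barcodes the sum was 9168, 6406, 13653 and 7844 CPM, and in C1qa-high barcodes it was 8829, 6489, 10026 and 7318 CPM. Ier2 (2.42-fold from the lowest to the highest mouse), Junb (2.15-fold), Jun (1.99-fold) and Dusp1 (1.83-fold) varied more between the mice than 95% of the 1999 genes with at least 50 CPM, whose median was 1.23-fold. Jund (1.26-fold) and Fos (1.31-fold) varied least among the members.

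In all barcodes, 5 members were lower in both DEP mice than in both PBS mice, where 12.8% of the 6609 genes tested were, and none was higher, where 13.8% were. These counts describe genes chosen with this contrast known. Ier2 was at 268, 205, 495 and 312 CPM, a log2 fold change of DEP over PBS of -0.76, with PBS 2 far above the rest. Jun was at 1021, 760, 1514 and 1209 CPM (-0.61), with even steps between the mice. Egr1 was at 90.8, 84.0, 125 and 130 CPM (-0.54), and here the mice of a group lay close together. Fosb gave 256, 190, 281 and 264 CPM (-0.28) and Jund gave 72.8, 79.2, 91.6 and 80.6 CPM (-0.17). In both, the nearest mice of the 2 groups almost met.

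The other 5 members overlapped between the groups. Junb was at 1677, 1104, 2066 and 963 CPM, so that the PBS mice held both the highest and the lowest value. Dusp1 gave 1160, 764, 1396 and 785 CPM and Atf3 gave 778, 585, 826 and 589 CPM, each with 1 high and 1 low mouse in either group. Nr4a1 gave 224, 196, 264 and 191 CPM. The log2 fold changes were -0.11 for Junb, -0.17 for Dusp1, -0.044 for Atf3, -0.10 for Nr4a1 and -0.095 for Fos. Leaving out 1 mouse at a time moved that of Junb between -0.52 and 0.47 and that of Dusp1 between -0.48 and 0.24, while Ier2 stayed between -1.01 and -0.45 and Egr1 between -0.62 and -0.45. Jun stayed between -0.80 and -0.45, Fosb between -0.48 and -0.12 and Jund between -0.28 and -0.078. Fos (-0.22 to 0.017), Atf3 (-0.22 to 0.16) and Nr4a1 (-0.27 to 0.087) changed sign. The members' median was -0.17 and that of all genes -0.0069, and the former was -0.43 without DEP 11, -0.36 without PBS 3, -0.086 without DEP 13 and -0.080 without PBS 2. Over all genes, edgeR called 0.00% of those tested, 171 had an unadjusted p under 0.05, and DESeq2 called 4.

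In Ly6c2-high barcodes, Egr1, Ier2 and Fosb were lower in both DEP mice than in both PBS mice, where 16.7% of 5578 genes were, and no member was higher, where 12.8% were. Fosb was at 134 CPM in DEP 11 and 135 CPM in PBS 3, so that its groups were barely apart. The log2 fold changes were -0.85 for Egr1, -0.64 for Fosb, -0.63 for Ier2 and -0.60 for Dusp1, with a median of -0.43 over the members. All 10 were negative, and PBS 2 held the highest value of each. Without PBS 2 the median was -0.11, with 2 members positive, and without PBS 3 it was -0.77. Leaving out 1 mouse at a time moved Dusp1 between -1.02 and -0.049 and Fosb between -0.98 and -0.16. Over all genes, edgeR called 0.0538% of those tested.

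In C1qa-high barcodes, Jun, Jund, Egr1 and Ier2 were lower in both DEP mice, where 14.7% of 6872 genes were, and no member was higher, where 16.0% were. The log2 fold changes were -0.81 for Ier2, -0.61 for Jun, -0.46 for Egr1 and -0.18 for Jund, with a median of -0.19 over the members, and Atf3 was at 0.025. The median was -0.065 without DEP 13, with 4 members positive, -0.087 without PBS 2, -0.36 without PBS 3 and -0.39 without DEP 11. Over all genes, edgeR called 0.00% of those tested, 270 had an unadjusted p under 0.05, and DESeq2 called 7. The summed heat shock genes moved alongside, at 6124, 6802, 8284 and 11055 CPM over all barcodes. They were lower in both DEP mice, with PBS 3 highest where PBS 2 was highest in the sum of the members, and their part in the members' values was not tested.

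The class difference was then set side by side in DEP and PBS mice. As this sets DEP against PBS values as well, it is described for the members and no test of it is reported for them. Dusp1 gave log2 differences of C1qa-high over Ly6c2-high of 0.093, 0.30, -0.50 and -0.18 in the 4 mice, and Atf3 gave 0.024, 0.13, -0.60 and -0.27. In both genes the value was positive in both DEP mice and negative in both PBS mice, which held for 4.20% of 6783 genes. The log2 class difference in DEP mice less that in PBS mice, as fitted by edgeR, was 0.50 for Dusp1, 0.48 for Atf3 and 0.073 for Nr4a1, the member with the widest class difference. Over all genes, the interaction of DEP and class was called by edgeR in 0.177% of 6783 genes, and 384 (5.66%) had an unadjusted p under 0.05.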

How the data were processed

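Single-cell 3′ libraries were made by the submitters with the 10x Chromium v2 kit, 1 well per mouse. Per the labels, Cell Ranger, STAR 2.6.1a, R 3.5.1 and the mm10 build were used, and neither the annotation nor the Cell Ranger version is given in these sources. The deposited table holds raw UMI counts for 28692 genes in 6954 barcodes, and the suffix of each barcode gives the mouse. Library totals were 7585591 UMIs (DEP 11), 4489342 (DEP 13), 10293703 (PBS 2) and 9893180 (PBS 3).

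Counts were summed per mouse and class and tested with edgeR 4.0.16 (TMM, quasi-likelihood), with mouse as a block for the classes, which come from 1 library per mouse. Genes tested had over 1 CPM in at least 2 sums and a UMI in at least 5% of the barcodes. Levels in CPM were computed without TMM, and log2 fold changes are those of edgeR. The labels name each sample as a separate mouse. Intervals are exact binomial. Gene models were from GENCODE (1 principal coding transcript per gene) and promoters from the RefSeq table, in which those of 8 of the 10 members were searched. The fits were also run on simulated counts with a common dispersion for all genes and no differences between mice other than depth. Such counts do not show how the fits perform with the spread between mice seen here.

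The members and all lists were chosen with earlier results of these data known, of which those recorded for the members set DEP against PBS mice. All members are named. Of the other lists, up to 4 genes are named, the 2 with the largest and the 2 with the smallest log2 fold change between the classes. The most like genes were taken from the 10 with the highest mean r. Some genes that these rules select are not reported here. DESeq2 1.42.0, other size factors, gene and barcode filters, thinning, other class limits and leaving out each mouse were the alternatives.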

Additional observations from a re-analysis of the deposited data

Results flagged for a closer look

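For 2 members the difference between the classes was positive in both DEP mice and negative in both PBS mice, where this held for 4.20% of 6783 genes, and a further 3.70% showed the reverse. For Dusp1 the mean log2 difference of C1qa-high over Ly6c2-high barcodes was 0.20 in the 2 DEP mice and -0.34 in the 2 PBS mice, and for Atf3 it was 0.075 and -0.44. No test of this difference is reported, since the members were chosen with the values of DEP and PBS mice known.

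In the barcodes with under 500 UMIs, which entered no comparison of the groups, Jund and Egr1 were higher in both DEP mice than in both PBS mice, where 15.4% of the 6609 genes tested in the main barcodes were, and Ier2 was lower (387 CPM against 566 CPM), where 15.7% were. Jund averaged 457 CPM in DEP and 321 CPM in PBS mice, and Egr1 averaged 355 CPM and 289 CPM, with PBS 2 at 353 CPM almost level with the DEP mice. In the main barcodes both genes were lower in both DEP mice. These differences were not tested.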

How the results depend on the processing

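Between the classes, Egr1, Fosb and Nr4a1 passed under all 18 alternatives, Ier2 under 16 and Fos under 10. Fos was lost with DESeq2, filterByExpr, no gene filter, doubled class limits, thinning, no mouse block, without PBS 2 and without PBS 3, and Ier2 with thinning and no mouse block. The members called lower were 5 without T, B or plasma marker barcodes, where Jun and Atf3 were added, 1 with thinning and 1 without the mouse block, against 3, and with thinning Jund was added to those called higher (0.81, adjusted p = 0.0383). All genes called higher and lower were 474 and 517 with halved class limits against 819 and 968, and 270 and 289 with thinning, which left 1981 genes to test, so that 28.2% were called against 26.3%. Dusp1 turned positive with no gene filter (0.0066), doubled limits (0.021), thinning (0.040) and without PBS 2 (0.063; range without 1 mouse -0.20 to 0.063), and with thinning Jun was 0.0029 and Junb -0.038, none of them past the test. Leaving out 1 mouse, the members called lower ranged from 2 to 4, with Jun added without PBS 3 (adjusted p = 0.0296) and Atf3 without DEP 13 (adjusted p = 0.0265).

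For the interaction, 12 genes were called, against 7 with DESeq2, 38 with filterByExpr, 36 with no gene filter, 24 without T, B or plasma marker barcodes, 6 without the top 5% of barcodes, 20 at 4000 to under 8000 UMIs, 4 with halved limits, 6 with thinning, and 7 to 24 when a mouse was left out. Of the members, Dusp1 was at 0.14 with halved limits, against 0.50, and at 0.36 to 0.64 without 1 mouse. Atf3 was at 0.30 with doubled limits and 0.26 with thinning, against 0.48, and at 0.34 to 0.63 without 1 mouse.

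For DEP against PBS, 0 genes were called in all barcodes (4 with DESeq2, 119 with no gene filter, 1 without the top 5%, 1 at 4000 to under 8000 UMIs, 7 to 35 without 1 mouse), 3 in Ly6c2-high barcodes (1 with filterByExpr, 36 with no gene filter, 1 without T, B or plasma marker barcodes, 0 without the top 5%, 6 with doubled and 6 with halved limits, 0 with thinning, 1 to 6 without 1 mouse) and 0 in C1qa-high barcodes (7 with DESeq2, 119 with no gene filter, 1 without the top 5%, 2 at 4000 to under 8000 UMIs, 1 with doubled limits, 0 to 14 without 1 mouse). A lone mouse in a group was taken to vary like the others. The log2 ratio of the summed members was -0.22 in all barcodes and ran from -0.45 to 0.057 over the alternatives, positive without PBS 2. The causes of the other changes were not tested. No paired analysis of the groups was possible because they were different animals and no matching between them is labelled. Depth limits Egr1 and Jund most, which rest on 12 to 45 UMIs per mouse in Ly6c2-high barcodes before thinning and on fewer after it.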
